A study of Mus musculus with 12 samples.

Results

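Collagen genes encode the chains of the collagen triple helices, and those of the loose connective tissue are often read as a measure of how much stroma a tissue sample holds. All rows of the expression table whose symbol is Col, a number, the letter a and a number were taken, which gave 44 of the 20308 genes of the table. They were followed in 12 RNA libraries of urogenital sinus epithelium, taken at embryonic day 15.5 from mouse embryos of the strain C57BL/6J. In the 8 Dnmt1cKO libraries the embryos carried a Cre driver of Shh, which is active in this epithelium, and thereby lost Dnmt1 there; Dnmt1 is the enzyme that copies DNA methylation onto newly made strands. The 4 Control libraries came from wildtype embryos. The study set Dnmt1-deleted epithelium against wildtype epithelium. Trypsin was used to part the epithelium from the stroma, so stromal RNA in a library is RNA that came through this separation. Tissue of several embryos went into each lysate, and the labels do not say how lysates and libraries correspond, so the spread between libraries may be partly technical.

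The collagen classes differ in where they are made and what they build. Fibrillar collagens, such as types I, III and V, form the banded fibres of connective tissue and are secreted mainly by mesenchymal cells, and type VI forms beaded microfilaments among those fibres. Type IV chains form the sheet-like network of basement membranes, which lie between epithelium and stroma and to which both tissues contribute. Types VII and XVII anchor epithelium: type VII forms anchoring fibrils below the basement membrane, and type XVII is a transmembrane collagen of the hemidesmosomes of basal epithelial cells.

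Summed expected counts per library ranged from 4007533 to 11970907 in Dnmt1cKO, against 7577706, 2915193 and 1613514 in Controls 1, 2 and 3 and 543591 in the library labelled Control 4, where 1 read was worth 2.84 CPM (CPM, counts scaled by each library's adjusted total). Dnmt1 itself was at 22.8 to 97.0 CPM in Dnmt1cKO, against 164, 114 and 237 CPM in Controls 1, 2 and 3. Over all libraries its log2 fold change (Dnmt1cKO over Control) was -1.29 ± 0.63 (SE; edgeR's quasi-likelihood test, adjusted p = 0.284), so Dnmt1 did not pass the test. The library labelled Control 4 had 1 Dnmt1 count (2.84 CPM), below every Dnmt1cKO library, which goes against its label. That library had a count in 6740 genes, against 9085 to 13829 in the others, so few counts there are not particular to Dnmt1. Control 3 stood apart as well: the epithelial genes Trp63, Shh and Foxa1 were at 2.26, 3.77 and 2.26 CPM there, while Epcam was at 783 CPM and Krt5 at 292 CPM. Over 15 epithelial markers the summed level was 6898 to 12360 CPM in Dnmt1cKO and 4054 to 36627 CPM in Control, and 14 or 15 of them had a count in every library. Many of the values that rest on Control 3 and the library labelled Control 4 are also given below without both. In bulk RNA, fewer cells of a type and less RNA per cell cannot be told apart.

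Of the 44 collagen genes, 42 had a count in some library and 36 passed the filter on low counts, while Col10a1 and Col19a1 had none. A single collagen gene passed the test, and it lay outside the fibrillar class of stroma: Col9a3, a chain of the fibril-associated type IX collagen, rose in Dnmt1cKO (edgeR's quasi-likelihood test, adjusted p under 0.05 over 12761 genes), where 1.03% of all genes rose. No collagen gene fell by that test, where 1.55% of all genes fell. At an unadjusted p under 0.05, edgeR put 1 collagen gene higher, against 8.19% of all genes, and 6 lower, against 9.54% of all genes; the 6 were Col5a2, Col6a1, Col6a2, Col9a2, Col15a1 and Col27a1. DESeq2 called 1 collagen gene higher, Col9a3, beside 4.01% of its genes, and 3 lower, Col6a2, Col9a2 and Col27a1, beside 8.47%. Limma-voom called no collagen gene higher, beside 0.0549% of all genes, and none lower, beside 0.196%. Without Control 3 and the library labelled Control 4, edgeR at an unadjusted p under 0.05 put 2 collagen genes higher, Col9a3 and Col22a1, beside 6.96% of all genes, and 3 lower, Col5a2, Col16a1 and Col27a1, beside 2.22%. No collagen gene had all Dnmt1cKO libraries above all libraries labelled Control, which 2.59% of all genes had, or all below, which 0.486% had.

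Among the 36 genes tested, 12 had a fitted log2 fold change (Dnmt1cKO over Control) above 0 and 24 below 0, with a median of -0.68 against a median of 0.22 over all genes tested. Fold changes depend on scaling: the median of all genes was 0.22 with TMM factors, 0.07 under RLE factors and 0.38 when scaled by library totals. Under those scalings 40.0%, 19.0% and 70.6% of all called genes were higher in Dnmt1cKO. The fibrillar collagens of stroma had a median of -1.04, which lay 1.26 below the median of all genes with TMM factors; with RLE factors the class lay 1.17 below it, and with library totals 1.21. The type IV chains had a median of 0.11 (-0.28 without Control 3 and the library labelled Control 4) and lay 0.11, 0.01 and 0.13 below the median of all genes.

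**Figure D1:**
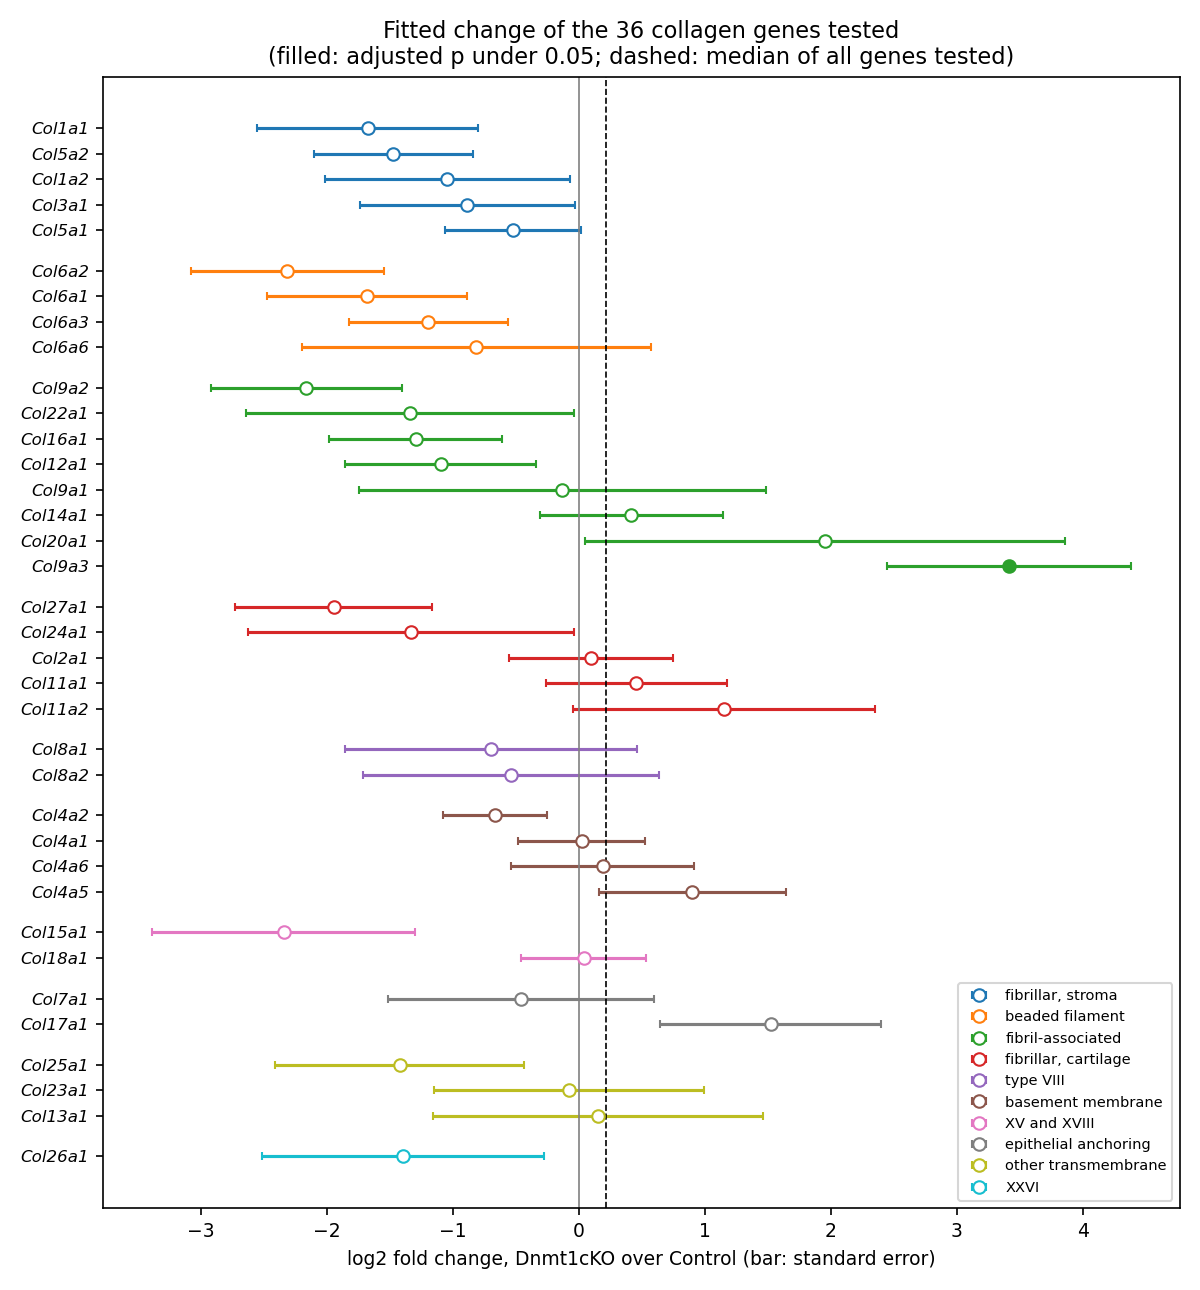
Fitted log2 fold change (x axis, Dnmt1cKO over Control) of each of the 36 collagen genes tested, grouped and coloured by class, with bars for the standard error, a solid line at 0 and a dashed line at the median of all genes tested (0.22). Only Col9a3 (3.42) is filled as passing an adjusted p of 0.05, and all 5 fibrillar collagens of stroma and all 4 beaded-filament genes lie to the left of 0.

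Per kb of exon, the most abundant collagen RNAs in Dnmt1cKO came from both the stromal and the basement membrane classes. In Control the type VI genes Col6a2 (89.3 CPM per kb) and Col6a1 (77.2 CPM per kb) were among them. Col3a1 averaged 153 CPM per kb in Dnmt1cKO and 283 CPM per kb in Control. Col1a2 averaged 96.7 CPM per kb in Dnmt1cKO and 199 CPM per kb in Control, and Col1a1 averaged 94.9 CPM per kb in Dnmt1cKO and 303 CPM per kb in Control. Among the basement membrane genes, Col4a1 averaged 78.7 CPM per kb in Dnmt1cKO and 77.1 CPM per kb in Control, a level near that of Col1a1 in Dnmt1cKO. Col18a1 averaged 60.6 CPM per kb in Dnmt1cKO and 58.7 CPM per kb in Control, and Col17a1, the hemidesmosome collagen, 30.5 CPM per kb in Dnmt1cKO and 10.3 CPM per kb in Control. These Control means include Control 3 and the library labelled Control 4. Without scaling by length, Controls 1 and 2 alone averaged 114 CPM for Col17a1, against 57.6 CPM over all Controls. For Col1a1 these means were 1231 and 1796 CPM, for Col3a1 1916 and 1572 CPM, and for Col18a1 319 and 412 CPM.

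The fibrillar collagens of stroma were Col1a1, Col1a2, Col3a1, Col5a1, Col5a2 and Col5a3, of which 5 were tested. All 5 had fitted log2 fold changes below 0 and none passed the test. Among the Dnmt1cKO libraries Col1a1, Col1a2 and Col3a1 had a wide range, as had the type VI genes Col6a1, Col6a2 and Col6a3, whereas that of Col5a1 was narrower. The promoter windows of Col1a2 and Col3a1 are shown because these genes varied together while their start regions differ: the Col1a2 window holds 13 CG dinucleotides and the Col3a1 window none. They are RefSeq windows on GRCm38.p6 of 300 bases each, from 250 bases before to 50 bases after a RefSeq start of the gene. For Col1a2 this start lies downstream of the first base of the gene span given below. Both windows are written 5′ to 3′ on the plus strand, with CG dinucleotides in capitals. The Col1a2 window is chr6:4505368-4505667 and the Col3a1 window chr1:45311288-45311587.
Col1a2: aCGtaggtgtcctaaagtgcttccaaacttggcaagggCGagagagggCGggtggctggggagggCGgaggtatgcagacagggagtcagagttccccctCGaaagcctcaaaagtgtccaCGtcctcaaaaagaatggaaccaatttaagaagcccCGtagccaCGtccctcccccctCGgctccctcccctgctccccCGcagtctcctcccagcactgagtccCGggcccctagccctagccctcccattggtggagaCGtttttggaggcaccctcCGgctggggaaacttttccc
Col3a1: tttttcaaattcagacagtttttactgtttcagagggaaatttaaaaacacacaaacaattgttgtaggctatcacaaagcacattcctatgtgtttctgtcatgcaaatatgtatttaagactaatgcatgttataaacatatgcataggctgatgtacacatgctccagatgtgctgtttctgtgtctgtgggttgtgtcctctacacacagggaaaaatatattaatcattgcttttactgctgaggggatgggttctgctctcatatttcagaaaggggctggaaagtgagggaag
The median over all 32851 windows of the table was 7 CG dinucleotides. The letters TATAAA, searched on both strands, stood in the Col3a1 window and not in the Col1a2 window, and 13.6% of all windows hold them. CCAAT and GGGCGG, each on both strands, stood in the Col1a2 window and not in the Col3a1 window, and 37.4% and 35.7% of all windows hold them. A match to GGGCGG also holds a CG dinucleotide, so these counts overlap.

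Col1a1 (chr11:94936224-94953042, mm10) encodes the major chain of type I collagen. Its level was 424, 1696, 75.1, 875, 239.8, 57.6, 102 and 1033 CPM in Dnmt1cKO 1 to 8, against 943, 1519 and 3912 CPM in Controls 1, 2 and 3 and, in the library labelled Control 4, 810.4 CPM. Dnmt1cKO 1, 3, 5, 6 and 7 lay below all libraries labelled Control, while Dnmt1cKO 2, 4 and 8 lay within their range. The highest Dnmt1cKO level was 29.4-fold the lowest. The group means were 563 ± 589.5 CPM in Dnmt1cKO (SD, n = 8) and 1796 ± 1444 CPM in Control (SD, n = 4), and the fitted log2 fold change was -1.67 ± 0.88 (SE; edgeR, adjusted p = 0.363). Without Control 3 it was -0.96, and -1.08 without the library labelled Control 4 as well.

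Col1a2 (chr6:4504814-4541544) encodes the partner chain of type I collagen. Its level in Dnmt1cKO ran from 51.3 CPM in Dnmt1cKO 6 through a median of 362 CPM to 1618 CPM in Dnmt1cKO 2, against 999, 1163 and 2134 CPM in Controls 1, 2 and 3 and, in the library labelled Control 4, 105 CPM. Dnmt1cKO 2, 4 and 8 were again high, and Dnmt1cKO 3, 6 and 7 lay below all libraries labelled Control. The fitted log2 fold change was -1.04 ± 0.97 (SE; edgeR, adjusted p = 0.633). Col3a1 (chr1:45311538-45349706), whose type III collagen co-assembles with type I in pliable tissue, ran from 76.0 CPM in Dnmt1cKO 6 through a median of 662 CPM to 2226 CPM in Dnmt1cKO 2, against 2049.6, 1783 and 2212 CPM in Controls 1, 2 and 3 and, in the library labelled Control 4, 245 CPM. Dnmt1cKO 3, 6 and 7 lay below all libraries labelled Control and Dnmt1cKO 2 above all of them. Its log2 fold change was -0.88 ± 0.85 (SE; edgeR, adjusted p = 0.646).

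Type V collagen sits inside type I fibrils and sets their diameter. Col5a2 (chr1:45374321-45503282) ran from 15.4 CPM in Dnmt1cKO 7 through a median of 82.8 CPM to 225 CPM in Dnmt1cKO 4, against 379, 261 and 379 CPM in Controls 1, 2 and 3 and, in the library labelled Control 4, 14.2 CPM. All 8 Dnmt1cKO libraries lay below Controls 1, 2 and 3 and all 8 above the library labelled Control 4. Its log2 fold change was -1.47 ± 0.63 (SE; edgeR, adjusted p = 0.214), and -1.72 without Control 3 and the library labelled Control 4. Col5a1 (chr2:27886425-28039514) ran from 64.4 CPM in Dnmt1cKO 7 through a median of 177 CPM to 282 CPM in Dnmt1cKO 4, against 287, 213 and 416 CPM in Controls 1, 2 and 3 and, in the library labelled Control 4, 11.4 CPM. It varied less among Dnmt1cKO libraries, 4.38-fold, than Col1a1, and the groups overlapped, with a log2 fold change of -0.52 ± 0.54 (SE; edgeR, adjusted p = 0.659). Col5a3 had 10 counts in all and was not tested.

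**Figure D2:**
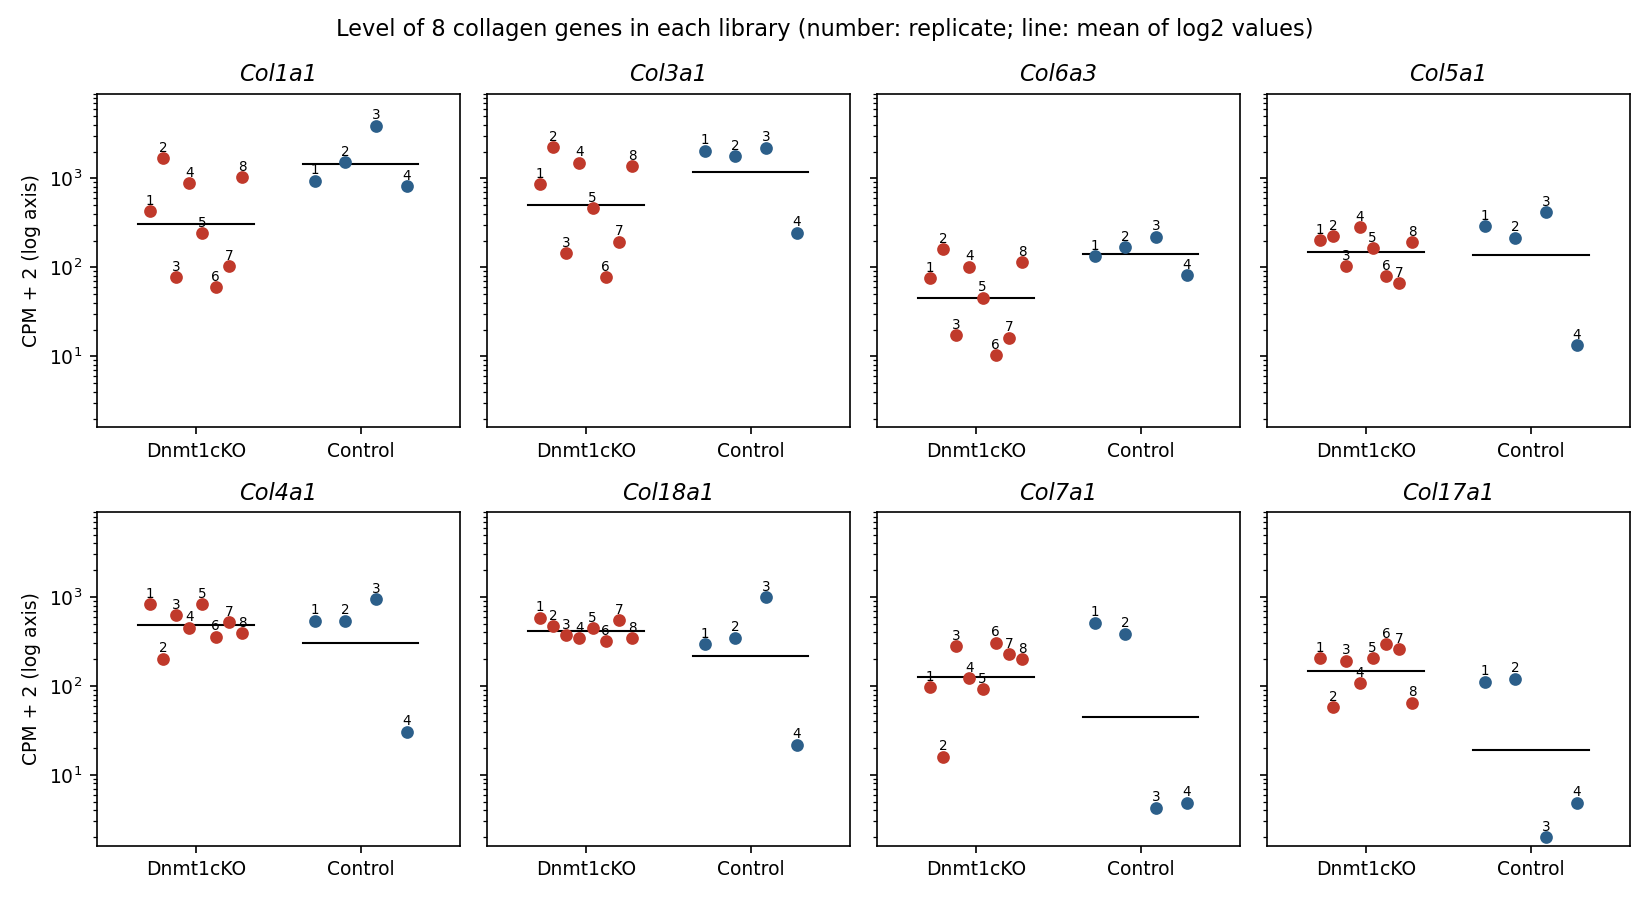
Level of 8 collagen genes in each library, as CPM + 2 on a log axis, with Dnmt1cKO (red) left of Control (blue), points numbered by replicate and a line at the mean of the log2 values of each group. Col1a1, Col3a1 and Col6a3 spread 19.0-fold to 29.4-fold among Dnmt1cKO libraries, whereas Col18a1 spreads 1.86-fold, and the library labelled Control 4 is the lowest of its group for 6 of the 8 genes.

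Summed over the 6 rows, the fibrillar collagens of stroma ran from 286 CPM in Dnmt1cKO 6 through a median of 1637 CPM to 5924 CPM in Dnmt1cKO 2, a 20.7-fold range, against 4657, 4939 and 9053 CPM in Controls 1, 2 and 3 and, in the library labelled Control 4, 1186 CPM. As a share of all counts they made up 0.0298% to 0.658% in Dnmt1cKO, and 0.50%, 0.50% and 0.74% in Controls 1, 2 and 3 and 0.0767% in the library labelled Control 4. Dnmt1cKO 3, 6 and 7 had the lowest sums and Dnmt1cKO 2, 4 and 8 the highest, so the libraries of the same genotype differed more from each other than the group medians did, which were 1637 CPM in Dnmt1cKO and 4798 CPM in Control. Among the 4063 genes with a mean of at least 50 CPM in Dnmt1cKO, the SD of log2 levels over the 8 Dnmt1cKO libraries had a median of 0.43. It was 1.84 for Col1a1, above that of 99.0% of these genes, 1.92 for Col1a2 (99.3%) and 1.78 for Col3a1 (98.8%). It was 0.76 for Col5a1 (87.1%).

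Among Dnmt1cKO libraries, smooth muscle and erythroid markers were lowest in the 3 libraries where this sum was lowest. So were endothelial markers, neural and glial markers and the stromal markers that are not collagens, whereas immune markers were not lowest in all of them. The 8 smooth muscle markers summed to 361, 1113, 34.8, 365, 107, 21.1, 40.3 and 289.5 CPM in Dnmt1cKO 1 to 8, a 52.8-fold range with the same 3 libraries lowest, against 601, 1203 and 2191 CPM in Controls 1, 2 and 3 and, in the library labelled Control 4, 76.8 CPM. All 8 had a count in 7 of the 8 Dnmt1cKO libraries and in Controls 1, 2 and 3. The 8 erythroid markers ran from 10.5 CPM in Dnmt1cKO 6 through a median of 422 CPM to 1539.5 CPM in Dnmt1cKO 2, against 1652, 772 and 5826 CPM in Controls 1, 2 and 3 and, in the library labelled Control 4, 429 CPM, with 3 to 6 of them with a count in each Dnmt1cKO library. The 24 stromal markers that are not collagens ran from 686 CPM in Dnmt1cKO 6 through a median of 1265 CPM to 1705 CPM in Dnmt1cKO 2, a 2.49-fold range, against 1725, 1553 and 3931 CPM in Controls 1, 2 and 3 and, in the library labelled Control 4, 537 CPM. Of the 21 tested, 0 passed the test by edgeR. At an unadjusted p under 0.05, 7 were lower, beside 9.54% of all genes, and 0 higher, beside 8.19%. Fn1, the most abundant stromal marker over all libraries, did not follow the fibrillar sum: it was at 602 CPM in Dnmt1cKO 3 and 136 CPM in Dnmt1cKO 8, and had no count in the library labelled Control 4. Sparc and Vim, the next most abundant, were lowest of the group in Dnmt1cKO 3, 6 and 7. Sparc was at 149, 144 and 187 CPM there, and Vim at 78.6, 51.2 and 57.7 CPM. The 9 immune markers summed to 37.3, 74.8, 34.5, 52.0, 36.8, 43.7, 19.0 and 26.8 CPM in Dnmt1cKO 1 to 8, against 17.8, 37.4 and 111 CPM in Controls 1, 2 and 3 and 0 CPM in the library labelled Control 4. Dnmt1cKO 6, with the least fibrillar collagen, was the third highest of its group for them. The 9 neural and glial markers summed to 5.10 to 365 CPM in Dnmt1cKO and 28.4 to 596 CPM in Control. Endothelial markers summed to 5.00 to 72.7 CPM in Dnmt1cKO and 8.53 to 161 CPM in Control. Their part in the levels of the collagen genes was not tested, beyond a fit with the level of the stromal markers as a covariate, in which the median of the fibrillar class was 0.05 and that of all genes 0.80.

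**Figure D3:**
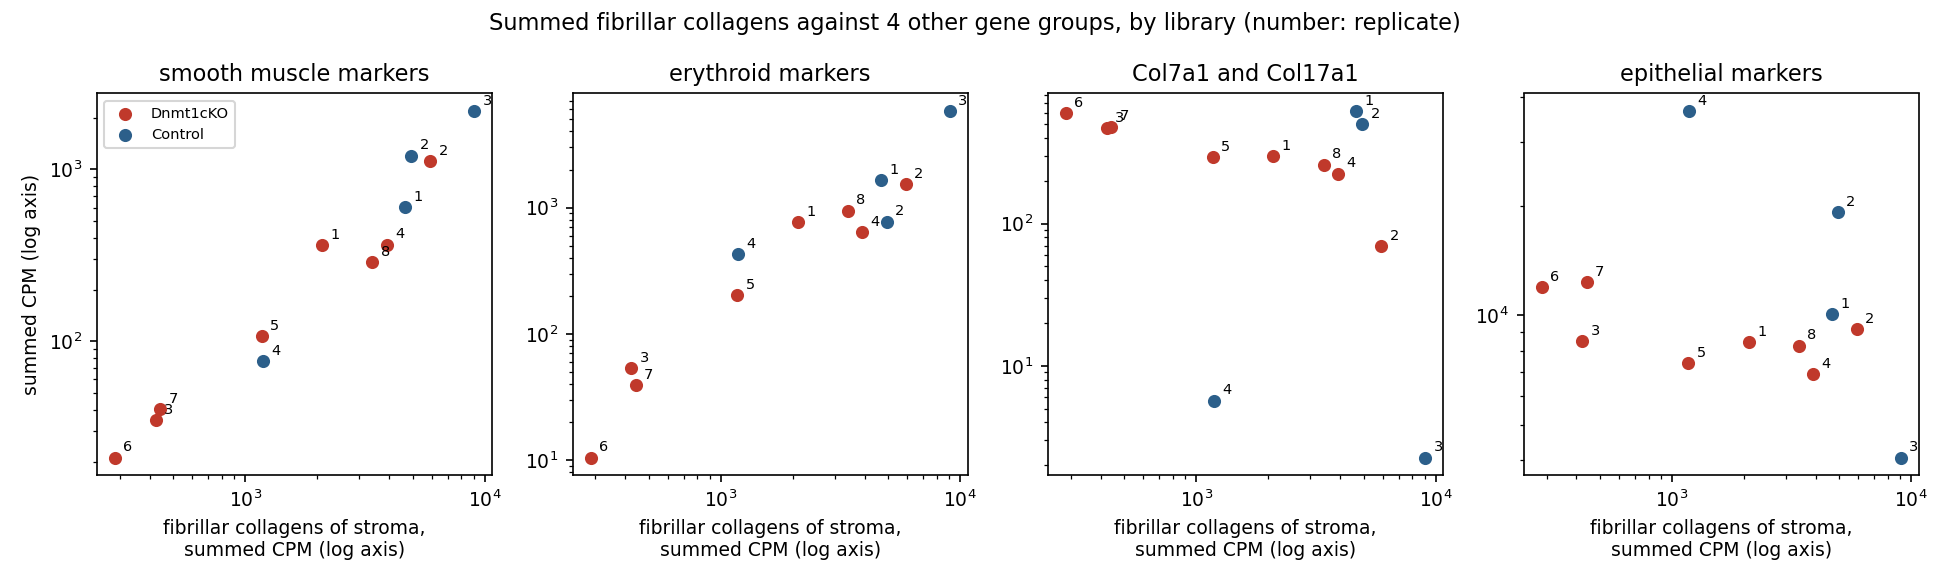
Summed CPM of smooth muscle markers, erythroid markers, Col7a1 with Col17a1, and epithelial markers (y axes, log) against the summed CPM of the fibrillar collagens of stroma (x axis, log) in each library, Dnmt1cKO in red and Control in blue, numbered by replicate. Among Dnmt1cKO libraries, Dnmt1cKO 3, 6 and 7 lie at the low end of smooth muscle and erythroid sums (34.8, 21.1 and 40.3 CPM for smooth muscle), and at the high end of Col7a1 with Col17a1 (466, 595 and 480.2 CPM). For Col7a1 with Col17a1, Controls 1 and 2 are at 620 and 501 CPM.

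Type VI collagen forms beaded microfilaments that tie cells to the fibrillar matrix, and is built from the chains of Col6a1, Col6a2 and Col6a3. The Col6a3 window is shown as a stromal promoter with 3 CG dinucleotides (capitals) and no match to any of the 3 motifs searched. It is chr1:90843922-90844221, written 5′ to 3′ on the minus strand.
Col6a3: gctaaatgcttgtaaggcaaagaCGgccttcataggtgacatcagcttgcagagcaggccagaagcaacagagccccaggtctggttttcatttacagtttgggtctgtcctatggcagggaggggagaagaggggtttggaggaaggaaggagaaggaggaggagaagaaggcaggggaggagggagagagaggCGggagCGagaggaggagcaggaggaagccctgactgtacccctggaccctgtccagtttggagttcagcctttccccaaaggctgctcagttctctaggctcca
Of the 7 beaded-filament genes, 4 were tested, none passed the test, and all 4 were fitted below 0 with a median of -1.44 (-1.19 without Control 3 and the library labelled Control 4). Col6a2 (chr10:76595762-76623630) stood at 99.1, 124, 16.3, 212, 56.7, 10.2, 12.7 and 335 CPM in Dnmt1cKO 1 to 8, against 229, 455 and 1058 CPM in Controls 1, 2 and 3 and, in the library labelled Control 4, 404 CPM. In 7 of 8 Dnmt1cKO libraries it was below every library labelled Control, and Dnmt1cKO 8 lay between them. Its log2 fold change of -2.31 ± 0.77 (SE; edgeR, adjusted p = 0.128) did not pass. It passed with DESeq2 (adjusted p = 0.0105), with RLE factors (0.0376), without Control 1 (0.0337) and without Dnmt1cKO 8 (0.0303). It also passed with a block for the code in the labels' description field (edgeR, adjusted p = 0.00276), a fit that left out Dnmt1cKO 1 and 2. In the other 16 alternatives it did not pass, limma-voom (adjusted p = 0.268) and library totals (edgeR, adjusted p = 0.176) among them. Without Control 3 and the library labelled Control 4 the log2 fold change was -1.61 (edgeR, adjusted p = 0.643), and without Control 3 alone -1.75 (0.322).

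Col6a1 (chr10:76708792-76726168), the neighbour of Col6a2 on chromosome 10, ran from 9.89 CPM in Dnmt1cKO 6 through a median of 68.4 CPM to 235 CPM in Dnmt1cKO 8, against 254, 228 and 758 CPM in Controls 1, 2 and 3 and, in the library labelled Control 4, 25.6 CPM. Its log2 fold change was -1.68 ± 0.79 (SE; edgeR, adjusted p = 0.277), and -0.79 without Control 3. Col6a3 (chr1:90765923-90843971), the largest chain, ran from 8.29 CPM in Dnmt1cKO 6 through a median of 58.7 CPM to 158 CPM in Dnmt1cKO 2, against 131, 167 and 219 CPM in Controls 1, 2 and 3 and, in the library labelled Control 4, 79.6 CPM. Dnmt1cKO 1, 3, 5, 6 and 7 were below all libraries labelled Control, and the log2 fold change was -1.20 ± 0.63 (SE; edgeR, adjusted p = 0.328). Type VI genes had the same wide spread as the type I genes, with SDs of 1.73, 1.84 and 1.50 on the log2 scale for Col6a1, Col6a2 and Col6a3 among Dnmt1cKO libraries.

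Col6a4, Col6a5 and Col28a1, which encode further collagens of this class, were not tested. Col6a5 was at 77.0 CPM in Dnmt1cKO 5 and at most 1.08 CPM elsewhere. Col6a5 and Col6a6 are similar genes between which reads could be divided, so both values are uncertain. Col6a6 averaged 18.9 ± 33.2 CPM in Dnmt1cKO (SD, n = 8) and 32.8 ± 49.0 CPM in Control (SD, n = 4), with groups that overlapped. Controls 1 and 2 alone averaged 12.9 CPM, and its log2 fold change of -0.81 was 0.59 without Control 3 and the library labelled Control 4.

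**Figure D4:**
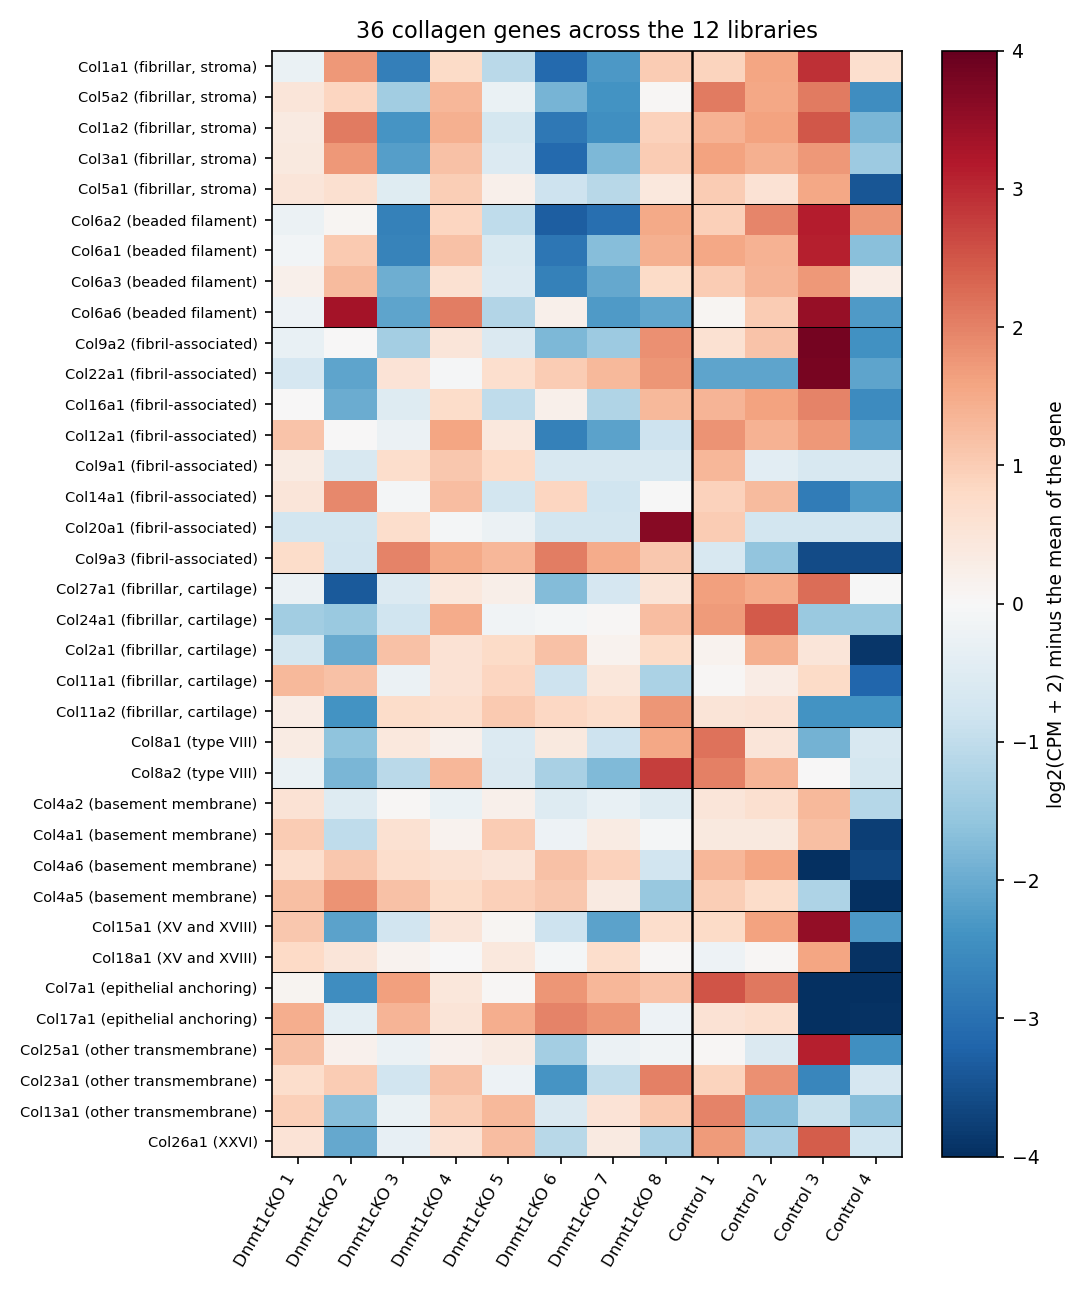
log2(CPM + 2) of each of the 36 collagen genes tested (rows, grouped by class) minus the mean of that gene, in the 8 Dnmt1cKO libraries (left) and the 4 libraries labelled Control (right), with colour limits at -4 and 4. The rows of Col1a1, Col1a2, Col3a1, Col6a1, Col6a2 and Col6a3 share a pattern, low in Dnmt1cKO 3, 6 and 7, which the type IV, VII and XVII rows do not show, nor that of Col6a6. Among Dnmt1cKO libraries, Col5a1, Col5a2, Col9a2, Col23a1 and Col25a1 are also lowest in these libraries.

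The type IV chains form the network of the basement membrane, Col4a1 with Col4a2 in nearly all basement membranes and Col4a5 with Col4a6 in some epithelia. The Col4a2 window is shown because Col4a1 and Col4a2 are read outward from a shared start region: it overlaps the Col4a1 window by 78 bases, in capitals here. The Col4a2 window is chr8:11312555-11312854, on the plus strand, and that of Col4a1 chr8:11312777-11313076, on the minus strand; they hold 33 and 37 CG dinucleotides.
Col4a2: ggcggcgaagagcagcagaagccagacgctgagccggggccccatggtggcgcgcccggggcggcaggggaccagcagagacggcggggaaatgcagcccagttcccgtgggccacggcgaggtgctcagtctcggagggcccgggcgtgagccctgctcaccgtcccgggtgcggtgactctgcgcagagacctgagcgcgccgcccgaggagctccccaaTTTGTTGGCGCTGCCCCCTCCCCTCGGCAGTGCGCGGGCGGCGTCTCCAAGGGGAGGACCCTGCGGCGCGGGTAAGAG
Both windows hold CCAAT and GGGCGG and neither holds TATAAA. Of the 6 type IV genes 4 were tested, and none passed the test, with 3 fitted above 0 and 1 below.

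Col4a1 (chr8:11198423-11312826) was at 829, 200.2, 624, 448, 826, 354, 517 and 388 CPM in Dnmt1cKO 1 to 8, against 541, 536 and 946 CPM in Controls 1, 2 and 3 and, in the library labelled Control 4, 28.4 CPM. The groups overlapped, Dnmt1cKO 2 was the lowest of its group, and the log2 fold change was 0.02 ± 0.50 (SE; edgeR, adjusted p = 0.988). Unlike Col1a1, it was not at its lowest in Dnmt1cKO 3, 6 or 7. Col4a2 (chr8:11312805-11449287) ran from 171 CPM in Dnmt1cKO 6 through a median of 203 CPM to 368 CPM in Dnmt1cKO 1, a 2.15-fold range, against 343, 388 and 605 CPM in Controls 1, 2 and 3 and, in the library labelled Control 4, 111 CPM. The Dnmt1cKO libraries lay between the library labelled Control 4 and Control 2, with a log2 fold change of -0.67 ± 0.41 (SE; edgeR, adjusted p = 0.423). Its SD of 0.40 on the log2 scale over Dnmt1cKO libraries was above that of 43.9% of the genes with at least 50 CPM.

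Col4a5 (chrX:141475385-141689234) ran from 53.1 CPM in Dnmt1cKO 8 through a median of 320.1 CPM to 548 CPM in Dnmt1cKO 2, against 314, 262 and 64.8 CPM in Controls 1, 2 and 3. It had 0 counts in the library labelled Control 4, which allows up to 8.53 CPM (3 counts, counting error only). Dnmt1cKO 8 was the lowest of its group, 4 of 8 Dnmt1cKO libraries were above every library labelled Control, and the log2 fold change was 0.90 ± 0.74 (SE; edgeR, adjusted p = 0.576). Without Control 3 and the library labelled Control 4 it was 0.14. Col4a6 (chrX:141165403-141474076), on the opposite strand beside Col4a5 with 842 bases between their windows, ran from 33.9 CPM in Dnmt1cKO 8 through a median of 97.3 CPM to 136 CPM in Dnmt1cKO 6, against 153 and 179.7 CPM in Controls 1 and 2. It had 2 counts (1.51 CPM) in Control 3 and 1 count (2.84 CPM) in the library labelled Control 4. Its log2 fold change was 0.19 ± 0.73 (SE; edgeR, adjusted p = 0.924), and -0.70 without both of those libraries. Col4a3 had 1 count in all and Col4a4 had 85, and neither was tested.

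Summed over the 6 rows, type IV collagen ran from 647 CPM in Dnmt1cKO 8 through a median of 1042 CPM to 1652 CPM in Dnmt1cKO 1, a 2.55-fold range beside the 20.7-fold range of the fibrillar collagens of stroma, against 1354, 1365 and 1617 CPM in Controls 1, 2 and 3 and, in the library labelled Control 4, 142 CPM.

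Col7a1 and Col17a1 were the collagens of epithelial anchoring. The Col17a1 window is shown as that of a collagen made by the epithelial cells themselves, with 5 CG dinucleotides in capitals. It is chr19:47691993-47692292, written 5′ to 3′ on the minus strand, and holds TATAAA and CCAAT and no GGGCGG.
Col17a1: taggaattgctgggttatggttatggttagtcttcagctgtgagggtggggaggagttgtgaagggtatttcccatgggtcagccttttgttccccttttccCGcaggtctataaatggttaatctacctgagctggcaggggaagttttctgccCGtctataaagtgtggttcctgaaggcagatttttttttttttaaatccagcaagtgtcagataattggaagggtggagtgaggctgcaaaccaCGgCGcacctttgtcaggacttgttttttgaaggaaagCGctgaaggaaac
Col17a1 (chr19:47646344-47692094) was at 202, 55.4, 190.5, 105, 201, 291, 255 and 62.5 CPM in Dnmt1cKO 1 to 8, against 109.7 and 118 CPM in Controls 1 and 2. Control 3 had 0 counts, which allows up to 2.26 CPM, and the library labelled Control 4 had 1 count (2.84 CPM). In 5 of 8 Dnmt1cKO libraries it was above every library labelled Control. The log2 fold change was 1.52 ± 0.88 (SE; edgeR, adjusted p = 0.391), and 0.66 without Control 3 and the library labelled Control 4.

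Col7a1 (chr9:108953586-108984875) was at 95.1, 13.9, 276, 120.0, 90.3, 303, 225 and 197 CPM in Dnmt1cKO 1 to 8, against 510.2 and 383 CPM in Controls 1 and 2. Control 3 had 3 counts (2.26 CPM) and the library labelled Control 4 had 1 count (2.84 CPM). All 8 Dnmt1cKO libraries were below Controls 1 and 2 and above the other two. Its log2 fold change was -0.46 ± 1.06 (SE; edgeR, adjusted p = 0.866), and -1.37 without Control 3 and the library labelled Control 4. Trp63, Shh and Foxa1 were also near 0 in Control 3, whereas in the library labelled Control 4 they were at 250.2, 668 and 45.5 CPM. The summed level of Col7a1 and Col17a1 was 297, 69.4, 466, 225, 292, 595, 480.2 and 259 CPM in Dnmt1cKO 1 to 8, lowest in the Dnmt1cKO library with the most fibrillar collagen and highest in that with the least. In Controls 1, 2 and 3 it was 620, 501 and 2.26 CPM. It was 5.69 CPM in the library labelled Control 4, which had the least fibrillar collagen of its group, so the Controls did not all follow this order.

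Fibril-associated collagens attach to the surface of fibrils, and 8 of the 9 measured were tested. Col9a3 (chr2:180597790-180622189) was at 37.9, 12.1, 92.2, 65.9, 57.5, 97.8, 65.1 and 48.5 CPM in Dnmt1cKO 1 to 8, against 13.3 and 6.07 CPM in Controls 1 and 2. Control 3 and the library labelled Control 4 had 0 counts, which allows up to 2.26 and 8.53 CPM. In 7 of 8 Dnmt1cKO libraries it was above every library labelled Control, and Dnmt1cKO 2 was below Control 1. It rose in Dnmt1cKO with a log2 fold change of 3.42 ± 0.97 (SE; edgeR, adjusted p = 0.0475), a 10.7-fold difference. Without Control 3 and the library labelled Control 4 the log2 fold change was 2.67 and the adjusted p 0.143. Leaving out Control 2, the library labelled Control 4 or any of Dnmt1cKO 1, 3, 4, 5, 6 or 7 also ended the call, with adjusted p from 0.0672 to 0.103, and over all alternatives it ran from 0.000816 to 0.944.

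The other type IX chains are Col9a1 and Col9a2. Col9a2 (chr4:121039385-121055322) ran from 9.69 CPM in Dnmt1cKO 6 through a median of 28.3 CPM to 143 CPM in Dnmt1cKO 8, against 60.2, 88.3 and 579.7 CPM in Controls 1, 2 and 3 and, in the library labelled Control 4, 5.69 CPM, with a log2 fold change of -2.16 ± 0.76 (SE; edgeR, adjusted p = 0.126). Control 3 was the highest of all libraries, and without it the log2 fold change was -0.36 (-0.79 without the library labelled Control 4 as well). Col9a1 was at 4.54 CPM or less in Dnmt1cKO and 5.90 CPM or less in Control. The cartilage markers outside the collagens summed to 6.39 to 39.2 CPM in Dnmt1cKO and 2.84 to 24.7 CPM in Control. Of the 5 tested, 0 passed the test and 1 was higher at an unadjusted p under 0.05, beside 8.19% of all genes.

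Among the remaining fibril-associated genes, Col12a1, Col14a1 and Col16a1, found along type I fibrils of many tissues, averaged 39.2, 77.0 and 42.6 CPM in Dnmt1cKO and 82.9, 56.5 and 104 CPM in Control. None of them passed the test. Col14a1 averaged 106 CPM in Controls 1 and 2 alone, and its log2 fold change of 0.42 was -0.41 without Control 3 and the library labelled Control 4. Col22a1 ranged from 0 to 27.1 CPM in Dnmt1cKO, with a count in 7 of 8 libraries, against 117 CPM in Control 3 and 0 in every other library labelled Control. Its log2 fold change was -1.34 ± 1.30 (SE; edgeR, adjusted p = 0.638). Without Control 3 this turned to 9.52, and Col22a1 was called higher in Dnmt1cKO (edgeR, adjusted p = 0.0381). Col20a1 was at 39.4 CPM in Dnmt1cKO 8 and 3.39 CPM or less in the others, against 4.67 CPM in Control 1 and 0 in the rest, with a log2 fold change of 1.96 ± 1.90 (SE; edgeR, adjusted p = 0.637), and of 1.24 without Control 3 and the library labelled Control 4.

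The fibrillar collagens known from cartilage had a median log2 fold change of 0.10, with 3 of 5 fitted above 0 and none passing the test. The median was -0.34 without Control 3 and the library labelled Control 4. Col2a1, the main collagen of cartilage, ran from 15.9 CPM in Dnmt1cKO 2 through a median of 113 CPM to 163 CPM in Dnmt1cKO 6, against 78.2, 192 and 98.8 CPM in Controls 1, 2 and 3 and, in the library labelled Control 4, 2.84 CPM. Col11a1, its partner in fibrils, ran from 16.3 CPM in Dnmt1cKO 8 through a median of 60.9 CPM to 107 CPM in Dnmt1cKO 1, against 43.6, 51.6 and 73.1 CPM in Controls 1, 2 and 3 and, in the library labelled Control 4, 2.84 CPM. Both overlapped between the groups. Col27a1 (chr4:63214004-63334991), another fibrillar collagen, ran from 0.449 CPM in Dnmt1cKO 2 through a median of 17.1 CPM to 33.9 CPM in Dnmt1cKO 8, against 75.0, 67.8 and 115 CPM in Controls 1, 2 and 3 and, in the library labelled Control 4, 22.7 CPM. It lay below every library labelled Control in 5 of 8 Dnmt1cKO libraries, with a log2 fold change of -1.95 ± 0.78 (SE; edgeR, adjusted p = 0.177). Col11a2 and Col24a1 averaged 15.7 and 4.62 CPM in Dnmt1cKO and 6.57 and 11.2 CPM in Control, with log2 fold changes of 1.15 and -1.33, and of 0.32 and -2.22 without Control 3 and the library labelled Control 4.

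Col18a1, whose collagen XVIII is a heparan sulfate proteoglycan of basement membranes and the source of endostatin, varied least among the Dnmt1cKO libraries of the 19 collagen genes with a mean of at least 50 CPM there. Col18a1 (chr10:77052178-77166548) ran from 313 CPM in Dnmt1cKO 6 through a median of 407 CPM to 582 CPM in Dnmt1cKO 1, a 1.86-fold range, against 292, 346 and 991 CPM in Controls 1, 2 and 3 and, in the library labelled Control 4, 19.9 CPM. Its SD of 0.33 on the log2 scale among Dnmt1cKO libraries was above that of 29.8% of genes with at least 50 CPM, and its log2 fold change was 0.04 ± 0.50 (SE; edgeR, adjusted p = 0.98). Col15a1, its relative in the basement membrane zone of muscle and vessels, ran from 0.208 CPM in Dnmt1cKO 7 through a median of 5.97 CPM to 18.5 CPM in Dnmt1cKO 1, against 14.5, 27.6 and 109 CPM in Controls 1, 2 and 3 and, in the library labelled Control 4, 0 CPM, with a log2 fold change of -2.34 ± 1.04 (SE; edgeR, adjusted p = 0.226) and of -1.40 without Control 3 and the library labelled Control 4. The type VIII genes Col8a1 and Col8a2, the transmembrane collagens Col13a1, Col23a1 and Col25a1, and Col26a1 had means of 6.88 to 16.6 CPM in Dnmt1cKO and 6.28 to 26.7 CPM in Control, and none passed the test. Of these, the log2 fold changes of Col13a1 (0.16) and Col25a1 (-1.42) turned to -0.62 and 0.51 without Control 3 and the library labelled Control 4, that of Col8a1 (-0.69) was then -1.49, that of Col8a2 (-0.54) -1.21 and that of Col23a1 (-0.08) -0.86.

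Across the 8 Dnmt1cKO libraries, Col1a1 was compared with 7 genes on the log2(CPM + 2) scale, with exact permutation tests and Benjamini-Hochberg adjustment over the 7. Pearson's r was 0.989 with Col1a2 (exact permutation, adjusted p = 0.000289; Spearman's rho 0.952, adjusted p = 0.00266), 0.989 with Col3a1 (0.00026; rho 0.976, 0.00139) and 0.987 with Col6a3 (0.00026; rho 0.976, 0.00139). It was 0.903 with Pdgfra, a receptor of mesenchymal cells (exact permutation, adjusted p = 0.00448; rho 0.905, 0.00799). Without Dnmt1cKO 2 and 6, the libraries farthest from the median of Col1a1, these 4 values were 0.980, 0.992, 0.982 and 0.867. With Col17a1, r was -0.898 (exact permutation, adjusted p = 0.00448; rho -0.833, 0.0215), and without Dnmt1cKO 2 and 6 it was -0.809 (exact permutation, adjusted p = 0.0914; rho -0.600, 0.338), which did not pass with 6 libraries. With those 6, Pearson's r with Col1a2, Col3a1, Col6a3 and Pdgfra still passed, while Spearman's rho with each of them missed the threshold (exact permutation, adjusted p = 0.0583). The r of Col1a1 was -0.406 with Col4a1 (exact permutation, adjusted p = 0.319; rho -0.286, 0.501) and -0.522 with Epcam, an adhesion molecule of epithelial cells (0.221; rho -0.310, 0.501). The unadjusted p-values of the 7 Pearson tests ran from 4.96e-05 to 0.319. All levels of a library share its depth and scaling. The description codes of the labels could not be used to split these libraries, since no code but 7 holds more than 1 of them.

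Chains that assemble into 1 collagen, and Col7a1 with Col17a1, were also compared within each library as a share of the counts of the pair, which does not depend on scaling. These pairs were chosen after the levels had been seen, and intervals are exact binomial ones at 95% for counting error only. Col1a1 made up 46.2% to 59.6% of the counts of Col1a1 and Col1a2 in Dnmt1cKO, and 48.6%, 56.6% and 64.7% in Controls 1, 2 and 3. In the library labelled Control 4 it made up 88.5% (84.5% to 91.8%, 322 counts). The type I chains kept a narrower ratio over the Dnmt1cKO libraries than their 29.4-fold range of level. Col4a1 made up 53.5% to 74.3% of Col4a1 and Col4a2 in Dnmt1cKO and 61.2%, 58.0% and 61.0% in Controls 1, 2 and 3, against 20.4% (10.2% to 34.3%, 49 counts) in the library labelled Control 4. Dnmt1cKO 2 had 53.5% and the other 7 Dnmt1cKO libraries were above every library labelled Control.

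Ratios were taken on log2(CPM + 2), so, unlike the shares, they depend on scaling and on the pseudocount where counts are few. The log2 ratio of Col4a1 over Col4a2 was 1.11 ± 0.40 in Dnmt1cKO (SD, n = 8) and -0.03 ± 1.24 in Control (SD, n = 4). This difference had p = 0.0101 by the exact permutation test, two-sided, and missed the threshold after adjustment over 5 pairs (0.0505). Without Control 3 and the library labelled Control 4 the difference was 0.55 (exact permutation, adjusted p = 0.222). Col7a1 made up 20.1% to 75.9% of Col7a1 and Col17a1 in Dnmt1cKO, against 82.3% and 76.5% in Controls 1 and 2, and the other libraries labelled Control had 3 and 2 counts for the pair. Every Dnmt1cKO library was below Controls 1 and 2, but the interval of Dnmt1cKO 8 (73.0% to 78.6%) overlapped that of Control 2 (74.2% to 78.6%). The log2 ratio differed by -1.47 over all libraries (exact permutation, adjusted p = 0.0631) and by -2.17 with Controls 1 and 2 alone (exact permutation, p = 0.0222, the smallest that 8 against 2 allows, adjusted 0.111). In Control 3 and the library labelled Control 4 the pseudocount largely sets this ratio. The ratios of Col1a1 over Col1a2 (-0.91) and of Col6a1 over Col6a2 (1.31) also had an adjusted p of 0.0631 by the exact permutation test, and Col4a5 over Col4a6 (0.35) had 0.640. With Controls 1 and 2 alone the difference was -0.03 for Col1a1 over Col1a2 (exact permutation, adjusted p = 0.933), 0.43 for Col6a1 over Col6a2 (0.417) and 0.70 for Col4a5 over Col4a6 (0.259).

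**Figure D5:**
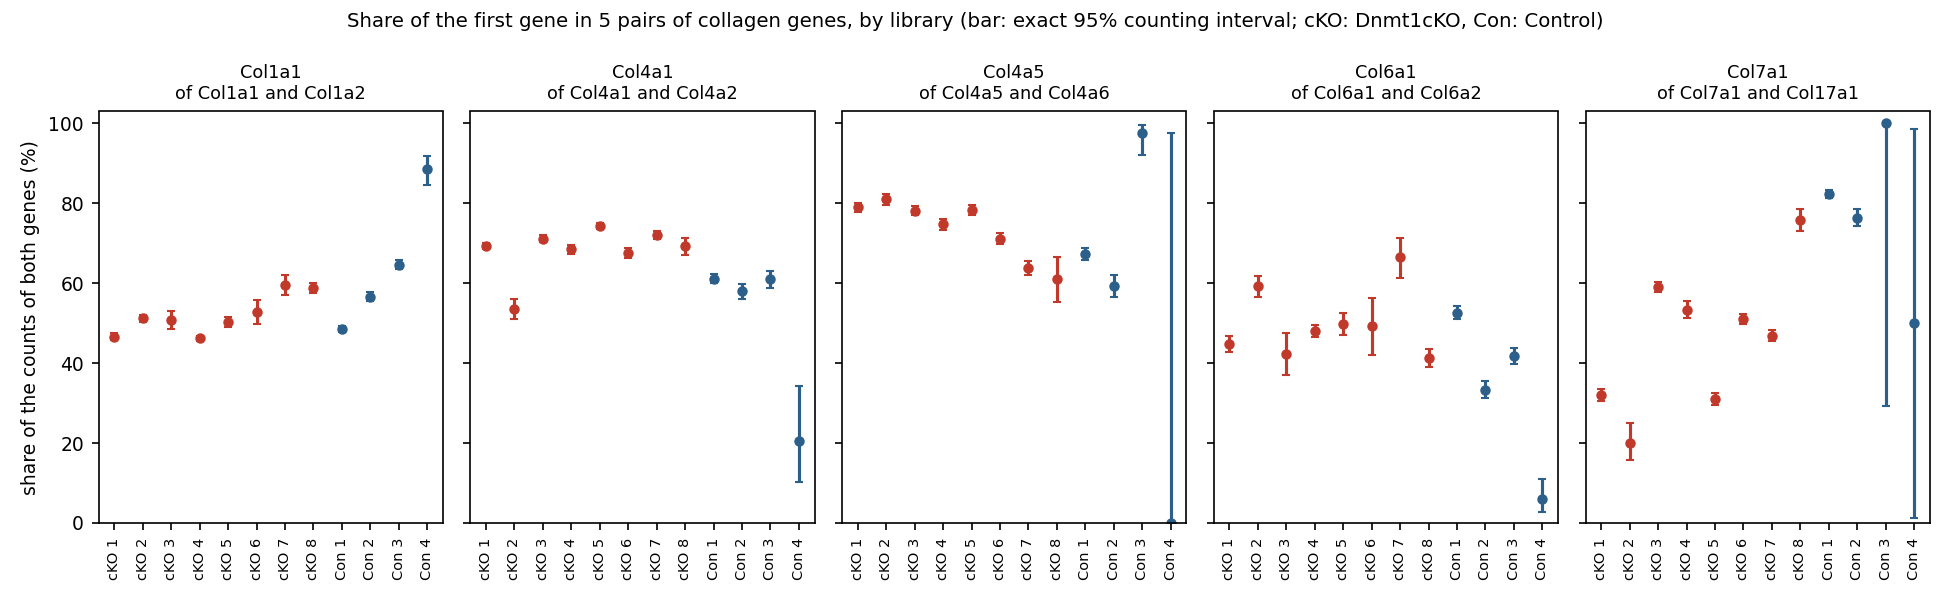
Share of the first gene in the counts of 5 pairs of collagen genes (y axis, percent) in each library, Dnmt1cKO (red) left of Control (blue), with exact 95% counting intervals as bars. Col1a1 stays between 46.2% and 59.6% in Dnmt1cKO, and Col7a1 lies at 75.9% or less of Col7a1 and Col17a1 in Dnmt1cKO, below Controls 1 and 2.

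The labels' description field carries a code whose meaning they do not give, and codes 4, 5, 6 and 7 occur in both groups with 1 library labelled Control each. The median log2 difference of the 5 fibrillar collagens of stroma, Dnmt1cKO minus Control, was -3.62, -0.21 and -2.33 within codes 4, 5 and 6, where that of all genes was -0.03, 0.18 and 1.01. Within code 7, whose Control is the library labelled Control 4, it was 0.39 where that of all genes was 1.83. Col9a3 was higher within each code, by 2.62, 3.07, 4.90 and 5.12. Col17a1 differed by 0.79, -0.17, 6.67 and 5.13, with the large values in the codes of Control 3 and the library labelled Control 4.

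Genes that make, bind or break down collagens were read from lists of partners. Of the 25 collagen-processing genes tested, 0 passed edgeR's adjusted threshold (at an unadjusted p under 0.05, 3 were higher and 1 lower), with a median log2 fold change of 0.14. Their summed level was 2370.1 to 4157 CPM in Dnmt1cKO and 2241 to 3567 CPM in Control, a 1.75-fold range in Dnmt1cKO beside the 20.7-fold range of the fibrillar collagens. Serpinh1, the collagen chaperone HSP47, was at 275 to 598 CPM in Dnmt1cKO, against 369, 276 and 700.3 CPM in Controls 1, 2 and 3 and 59.7 CPM in the library labelled Control 4. P4hb, a subunit of the prolyl hydroxylase that stabilises the triple helix, was at 967 to 1964 CPM in Dnmt1cKO and 941 to 1592 CPM in Control.

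Of the collagen receptors, 0 of 6 tested passed (at an unadjusted p under 0.05, 1 was higher and 1 lower). The unadjusted counts here stand beside 8.19% of all genes higher and 9.54% lower. Ddr1, the collagen receptor kinase of epithelia, was at 53.3 to 297 CPM in Dnmt1cKO, against 154, 160.2 and 30.2 CPM in Controls 1, 2 and 3 and 5.69 CPM in the library labelled Control 4. Ddr2, that of mesenchymal cells, was at 1.50 to 87.3 CPM in Dnmt1cKO, lowest in Dnmt1cKO 6 like Col1a1, against 96.4, 75.2 and 267 CPM in Controls 1, 2 and 3 and 2.84 CPM in the library labelled Control 4. Of the genes of collagen breakdown, 0 of 5 tested passed (2 lower at an unadjusted p under 0.05), with a median of -0.81. Of 19 other basement membrane genes tested, 0 passed (4 higher at an unadjusted p under 0.05), with a median of 0.10 beside 0.11 for the type IV chains. These medians were 0.18 and -0.28 without Control 3 and the library labelled Control 4. Of 6 hemidesmosome genes, the partners of Col17a1, 0 passed (3 higher at an unadjusted p under 0.05). Itga6, the laminin-binding integrin chain of hemidesmosomes, was at 77.0 to 423 CPM in Dnmt1cKO, against 92.2, 43.5 and 4.52 CPM in Controls 1, 2 and 3 and 2.84 CPM in the library labelled Control 4, with a log2 fold change of 2.31 ± 0.68 (SE; edgeR, adjusted p = 0.0599). This value rests in part on Control 3 and the library labelled Control 4, the lowest of all libraries for Itga6, and is not given without them.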

How the data were processed

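The deposited table holds RSEM expected counts, which are estimated read counts per gene made by the authors, for 20308 gene symbols in 12 libraries. Per the labels' protocols, polyadenylated RNA was selected, fragmented and reverse transcribed from random hexamers, and no molecular identifiers are mentioned. The submitters' processing notes name RSEM 1.2.3, Bowtie 0.12.9, bcl2fastq 2.17.1.14 and the build mm10. Annotation, trimming and strand setting: not given in the sources used here. Reads of overlapping or closely similar genes cannot be assigned with certainty.

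Expected counts were rounded to whole numbers and tested in R 4.3.3 with edgeR 4.0.16 (filterByExpr by group with its minimum count at 10 and its total at 15, TMM factors, robust quasi-likelihood F-test on genotype), with Benjamini-Hochberg adjustment over the 12761 genes kept and a threshold of 0.05. CPM were computed on TMM-adjusted totals. A standard error is the size of the log2 fold change divided by the square root of F. DESeq2 1.42.0 and limma-voom (limma 3.58.1) with quality weights were alternatives, as were RLE factors, library totals, no filter, each library left out, Control 3 and the library labelled Control 4 left out together, blocks for the title number and for the description code, and stromal level as a covariate, which is the mean log2 CPM of the stromal markers that are no collagens. The block for the title number left out Dnmt1cKO 5 to 8, and that for the code Dnmt1cKO 1 and 2, which have no Control partner. Levels per kb use the merged exons of protein-coding transcripts in GENCODE M21. The edgeR step was tested on simulated data. Correlations and pair ratios were tested with exact permutation tests, two-sided, on log2 values with a pseudocount of 2 CPM for both. Exact Poisson and binomial intervals at 95% and the limit that 0 counts allow (3 counts) cover counting error only.

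Replicates are libraries that the labels number within a group, so a p-value reflects only how these libraries spread, which may be technical. No pair of libraries of a group agreed within sampling noise (lowest chi-square per degree of freedom 28.1). Genes shown with values in each group were 14 collagens that the rule names, every called collagen and the 4 collagens with the smallest unadjusted p in each direction, and up to 3 of the most abundant genes of each partner list. The members, the lists and these rules were chosen with earlier results of these data known. Col21a1 and Mia3 are not analysed here, and Cnmd, Adgre1, P3h1, P3h2 and P3h3 were read under the older symbols Lect1, Emr1, Lepre1, Leprel1 and Leprel2. RefSeq promoter windows were found for 35 of the 44 genes.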

Additional observations from a re-analysis of the deposited data

Results flagged for a closer look

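In 38 groups of libraries, 1 for each named collagen gene and group, the highest or the lowest library was compared with its nearest neighbour as a share of the whole range on the log2(CPM + 2) scale. A gap past the 95% critical value of Dixon's test arises by chance in about 1 in 20 groups, and 9 gaps were past it. Of these, 3 lay in the library labelled Control 4, which was far below the other Controls for Col3a1 (245 CPM), Col5a2 (14.2 CPM) and Col4a1 (28.4 CPM). In Dnmt1cKO 8, Col4a5 (53.1 CPM) and Col4a6 (33.9 CPM) were far below the other Dnmt1cKO libraries, and Col20a1 (39.4 CPM) was far above them. In Dnmt1cKO 2, the library with the most fibrillar collagen, Col7a1 (13.9 CPM) and Col9a3 (12.1 CPM) were far below the other Dnmt1cKO libraries. Col20a1 was at 4.67 CPM in Control 1 and had no count in the other libraries labelled Control.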

How the results depend on the processing

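The count of collagen genes higher in Dnmt1cKO, 1 in the fit as reported, was 0 with library totals, with limma-voom, with the replicate block on the title number, with the stromal covariate and without Control 3 and the library labelled Control 4, and 0 to 2 with a library left out. That of collagen genes lower, 0 as reported, was 3 with DESeq2, 1 with RLE factors and 1 with the code block, and 0 to 2 with a library left out (Col6a2 without Control 1, Col6a2 and Col9a2 without Dnmt1cKO 8). Over all genes, the 132 higher became 487 with DESeq2, 7 with limma-voom, 21 with the replicate block and 45 without Control 3 and the library labelled Control 4, and 60 (without the library labelled Control 4) to 657 (without Control 1) with a library left out. The 198 lower became 1030 with DESeq2, 726 with RLE factors, 84 with the code block, 47 with library totals, 25 with limma-voom, 29 with the replicate block and 2 without Control 3 and the library labelled Control 4, and 36 to 494 with a library left out, at the same 2 libraries. The median of the fibrillar collagens of stroma was -1.54 (without Dnmt1cKO 2) to -0.68 (without Control 3) with a library left out, -2.25 with limma-voom, -0.51 with the replicate block and 0.05 with the stromal covariate. That of the type IV chains was 1.25 with the code block, 1.24 with the replicate block and 0.78 with the stromal covariate, where all genes had 1.07, 0.86 and 0.80, and -0.20 to 0.45 with a library left out.

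Apart from Col22a1, which passed without Control 3 (-1.34 to 9.52), directions turned round for genes that passed no test on either side. With the stromal covariate the log2 fold changes of Col1a2, Col3a1, Col5a1 and Col5a2 were 0.22, 0.052, 0.99 and 0.039. Col5a1 was 0.033 with the code block and 0.16 with the replicate block, and Col7a1 1.86 and 0.82. With a library left out, Col7a1 was -0.87 to 0.32, above 0 without Control 1. Col4a1 was -0.035 with DESeq2 and -0.034 with RLE factors and, with a library left out, -0.28 to 0.50, below 0 in 4 fits: -0.28 without the library labelled Control 4, -0.10 without Dnmt1cKO 1 or 5 and -0.01 without Dnmt1cKO 3. Col4a6 was -0.21 with limma-voom, -0.22 without Control 3, -0.13 without the library labelled Control 4 and -0.70 without both, and reached 0.85 without Control 2. Col18a1 was -0.022 with DESeq2 and -0.021 with RLE factors and, with a library left out, -0.27 to 0.94, below 0 in 5 fits: -0.09 without Control 1, -0.03 without Control 2, -0.27 without the library labelled Control 4, -0.04 without Dnmt1cKO 1 and -0.02 without Dnmt1cKO 7. Col20a1 was -1.68 with limma-voom. The cause was not tested. Of the values of the named collagen genes (Col22a1 is not among them), correlations and ratios under alternatives, 360 kept their direction and their side of the threshold, 27 turned round, 14 lost a call and 8 gained one.

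Deviations of same-numbered libraries from their group means correlated at -0.055 to 0.061, and those with the same description code at -0.046 to 0.054. These values showed no sign that either label pairs the libraries, but they cannot exclude it. The replicate block and the code block are therefore given only as alternatives. The replicate block left out Dnmt1cKO 5 to 8, and the code block Dnmt1cKO 1 and 2. Pair ratios without Control 3 and the library labelled Control 4 were added after seeing the data. The library labelled Control 4, with 543591 counts, limits what the Control group shows for genes under about 8.53 CPM.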
